A study of Homo sapiens with 14 samples.

Results

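The genes described here write, copy and remove methyl groups on cytosine. They are the 3 TET dioxygenases (TET1, TET2, TET3), the 3 DNA methyltransferases (DNMT1, DNMT3A, DNMT3B), UHRF1, TDG, and the isocitrate dehydrogenases IDH1 and IDH2. The 10 genes were taken by symbol, out of 36601 genes in the single-cell matrices and 60624 in the bulk tables, and all 10 were found in both. In mammalian cells DNMT3A and DNMT3B place new methyl groups on CpG sites. UHRF1 binds hemimethylated CpG sites behind the replication fork and brings in DNMT1, which copies the mark onto the new strand. TET enzymes oxidise 5-methylcytosine with 2-oxoglutarate as a co-substrate, and TDG, a thymine DNA glycosylase, cuts out the more oxidised bases. IDH1 in the cytoplasm and IDH2 in mitochondria make 2-oxoglutarate from isocitrate.

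The cells were SW620, an established line from a lymph node metastasis of a colorectal cancer, grown for up to 15 days without passage (long-term culture, LTC). The control cells are labelled SW620. In the single-cell data they carry an empty FLAG vector according to the study (SW620-FLAG). SW620-TET2CD cells overexpressed the catalytic domain of TET2 alone. Each line was measured by 10x 3′ single-cell RNA-seq on days 6, 9, 12 and 15, with 1 library per line and day. Bulk RNA-seq covered day 15 cells of both lines, taken separately from inside the colonies and from outside them, and day 6 cultures of SW620 and of SW480, a line from the primary tumor of the same patient. The day 15 bulk control is labelled SW620 as well, and the study does not say that it carried the FLAG vector. It is called SW620-FLAG here on the assumption that it did. The sources used here do not name the promoter that drives TET2CD or say whether either line was 1 clone. Each of the 14 conditions had 1 library, so that a difference between days or lines cannot be told apart from a difference in handling of those libraries. Levels in the single-cell data are UMIs summed over kept cells and scaled to a total of 1000000 (CPM). With no condition repeated, p-values rest on the spread between libraries of unlike conditions. In tests over time days 6 and 9 stand in for repeats, as do days 12 and 15, so change between those days enters the spread. For the lines, it is the spread of their difference over days. For classes of cells, it is the spread over libraries of the difference within a library. Values of a line are listed in the order of days 6, 9, 12 and 15.

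Between 3894 and 8154 cells were kept per single-cell library, 48282 of 67056 barcodes in all, with 48186195 to 74185723 UMIs per library. A count of 3 UMIs, the floor used here, stood at 0.0404 to 0.0623 CPM. No pair of libraries shared more than 23 barcodes. Of 8 epithelial markers EPCAM stood at 496 to 639 CPM in every library and KRT20 stayed under 1 CPM, while CDH1, at 24.7 to 119 CPM, was higher in late libraries (1.39, edgeR adjusted p = 0.00018) and VIL1, at 82.9 to 123 CPM, was lower (−0.31, edgeR adjusted p = 0.0395). Between the lines none of the 8 passed, and the leukocyte marker PTPRC did not exceed 0.0197 CPM. The 6 fibroblast markers summed to 16.6 to 28.7 CPM in early and 8.37 to 12.9 CPM in late libraries, most of it LUM, with COL1A2 and COL3A1 at 0.0196 CPM or less. The fibroblast list was mixed over time: LUM fell by 1.39 on the log2 scale, while COL1A1 rose by 0.76 and DCN by 2.45 (edgeR adjusted p = 0.000996, 0.0142 and 0.0086). The levels were low, with COL1A1 at 3.35 CPM or less and DCN at 0.431 CPM or less. The 6 immune and endothelial markers summed to 7.61 to 17.9 CPM in early libraries (days 6 and 9) and to 24.3 to 57.8 CPM in late ones (days 12 and 15), mostly CD68 and LYZ, with CD3E at 0.0591 CPM or less. Between the lines PECAM1 (1.88) and LYZ (0.83) were higher and CD68 (−1.08) lower in SW620-TET2CD (edgeR adjusted p = 0.00223, 0.00811 and 0.0096). PECAM1 stayed at 1.27 CPM or less. The part of these markers in the changes over time or between lines was not tested. Median mitochondrial shares per library were 3.93% to 7.77%.

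TET2 (chr4:105145875-105279816, GRCh38, plus strand) checks the labels, since the transgene codes for its catalytic domain. How many transgene transcripts a 3′ count gives to TET2 depends on the 3′ end of the construct, which the sources used here do not give, so the TET2 levels, folds and shares of cells below are those of reads assigned to TET2 and may not count every transgene transcript. The SW620-FLAG libraries held 2.11, 2.32, 3.90 and 2.93 CPM of it. The SW620-TET2CD libraries held 107, 59.5, 40.2 and 41.6 CPM. Each SW620-TET2CD library was far above each SW620-FLAG library, and the gap was narrower on days 12 and 15. The fitted difference between the lines was 4.27 on the log2 scale (SE 0.31, edgeR's quasi-likelihood test with the day as a block, Benjamini-Hochberg adjusted p = 1.33e-05). TET2 was the only 1 of the 10 genes to pass, against 4.21% of all 16526 tested genes, and the adjusted p-values of the other 9 ran from 0.163 to 0.934 in the same test. Pooled over days, DNMT1, TET1, TDG and DNMT3A differed between the lines by 0.11 (DNMT1, SE 0.12) to 0.14 (DNMT3A, SE 0.10) on the log2 scale. By day TET1 ran from 0.0007 to 0.71, DNMT3A from −0.06 to 0.67, TDG from −0.0056 to 0.48 and DNMT1 from −0.06 to 0.56. The highest values were on day 15, and for DNMT1 on day 12. DNMT3B ran from −0.24 to 0.94 and TET3 from −0.18 to 0.80, also with the highest on day 15. IDH1 ran from −0.11 to 0.32, with the highest on day 12. With single libraries left out, the pooled values ran from 0.0088 to 0.18 for TET1 and from 0.06 to 0.21 for DNMT3A. TDG then ran from 0.08 to 0.19 and DNMT1 from −0.04 to 0.19.

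A TET2 UMI was found in a minority of SW620-TET2CD cells. To compare libraries of unequal depth, each cell was thinned to 2000 UMIs and the 333 cells below that depth were left out. On this scale 13.2% of SW620-TET2CD cells held a TET2 UMI on day 6 (exact 95% binomial interval 12.4 to 13.9%), 8.75% on day 9, 6.58% on day 12 and 5.96% on day 15. In SW620-FLAG the shares were 0.506%, 0.509%, 0.589% and 0.586%, which is the background for reading them, and before thinning the shares were 1.65 to 4.68% in SW620-FLAG and 17.2 to 27.9% in SW620-TET2CD. The intervals cover counting error only. A cell with no TET2 UMI can still hold TET2 transcripts, and the share with a UMI depends on depth and mean level as well as on spread among cells. These shares are therefore not the shares of cells that carry the transgene, and the share under an even spread was not computed. A single thinned cell held up to 9 TET2 UMIs in SW620-TET2CD on day 6, and 4.76% of the cells of that library held at least 2. In SW620-FLAG 1 library reached 2 UMIs in a cell.

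**Figure D1:**
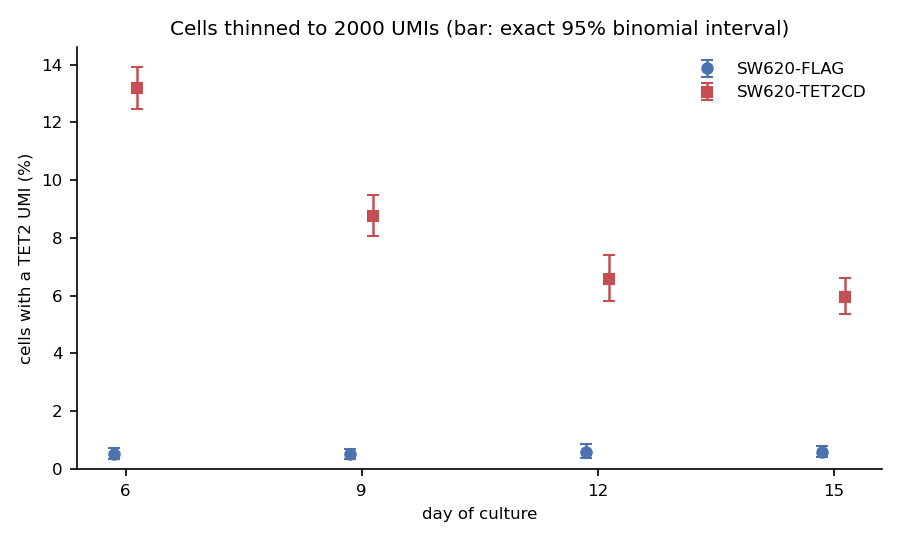
Share of cells with at least 1 TET2 UMI after thinning each cell to 2000 UMIs (y axis, percent) by day of culture (x axis), for SW620-FLAG (circles) and SW620-TET2CD (squares), 1 library per point with exact 95% binomial intervals. The SW620-TET2CD points run from 13.2% on day 6 to 5.96% on day 15, and the SW620-FLAG points stay between 0.506% and 0.589%.

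The largest changes over LTC among the 10 genes were those of the maintenance pair. DNMT1 (chr19:10133342-10231286, minus strand) was at 181, 191, 46.2 and 46.1 CPM in the SW620-FLAG libraries, while those of SW620-TET2CD had 185, 183, 68.0 and 57.2 CPM. UHRF1 (chr19:4903080-4962154, plus strand) was at 58.0, 44.3, 6.70 and 5.03 CPM in the former, while the latter had 57.7, 56.0, 15.0 and 9.17 CPM. Both were lower in all 4 late libraries (days 12 and 15) than in any early library (days 6 and 9), in either line. Of all genes averaging 1 CPM or more, 25.9% were lower without overlap in this way and 30.1% were higher, against 3 and 1 of the 10. In these sums fewer cells making a transcript and less of it per cell cannot be told apart. With the line as a block, late against early days gave a log2 fold change of −1.88 for DNMT1 (SE 0.13, edgeR adjusted p = 8.27e-06) and of −2.78 for UHRF1 (SE 0.23, edgeR adjusted p = 1.34e-05). The share of all 16526 tested genes called in this comparison was 58.0%, 29.4% higher and 28.6% lower in late libraries, and of the 10 genes 4 were lower and 1 was higher. So many genes moved between early and late libraries that a call by itself does not set a gene apart, and the sizes of the changes are given for that reason.

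DNMT3B (chr20:32762385-32809359, plus strand), a de novo methyltransferase, also fell in the single-cell sums. Its SW620-FLAG levels were 4.73, 3.29, 2.13 and 1.19 CPM, and its SW620-TET2CD levels were 4.02, 4.31, 2.76 and 2.29 CPM. Every late library was below every early library, and the log2 fold change was −1.10 (SE 0.21, edgeR adjusted p = 0.00139). In the bulk libraries described below, DNMT3B in SW620-FLAG on day 15 was only slightly under SW620 on day 6. DNMT3A (chr2:25227855-25342590, minus strand), the other de novo enzyme, held between 11.9 and 18.9 CPM in all 8 libraries. Its early and late libraries overlapped, with a log2 fold change of −0.06 (SE 0.12, edgeR adjusted p = 0.687). DNMT3L, the catalytically inactive partner of both, was at 0 in 6 of the 8 libraries and at 0.0404 CPM or less in the others.

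**Figure D2:**
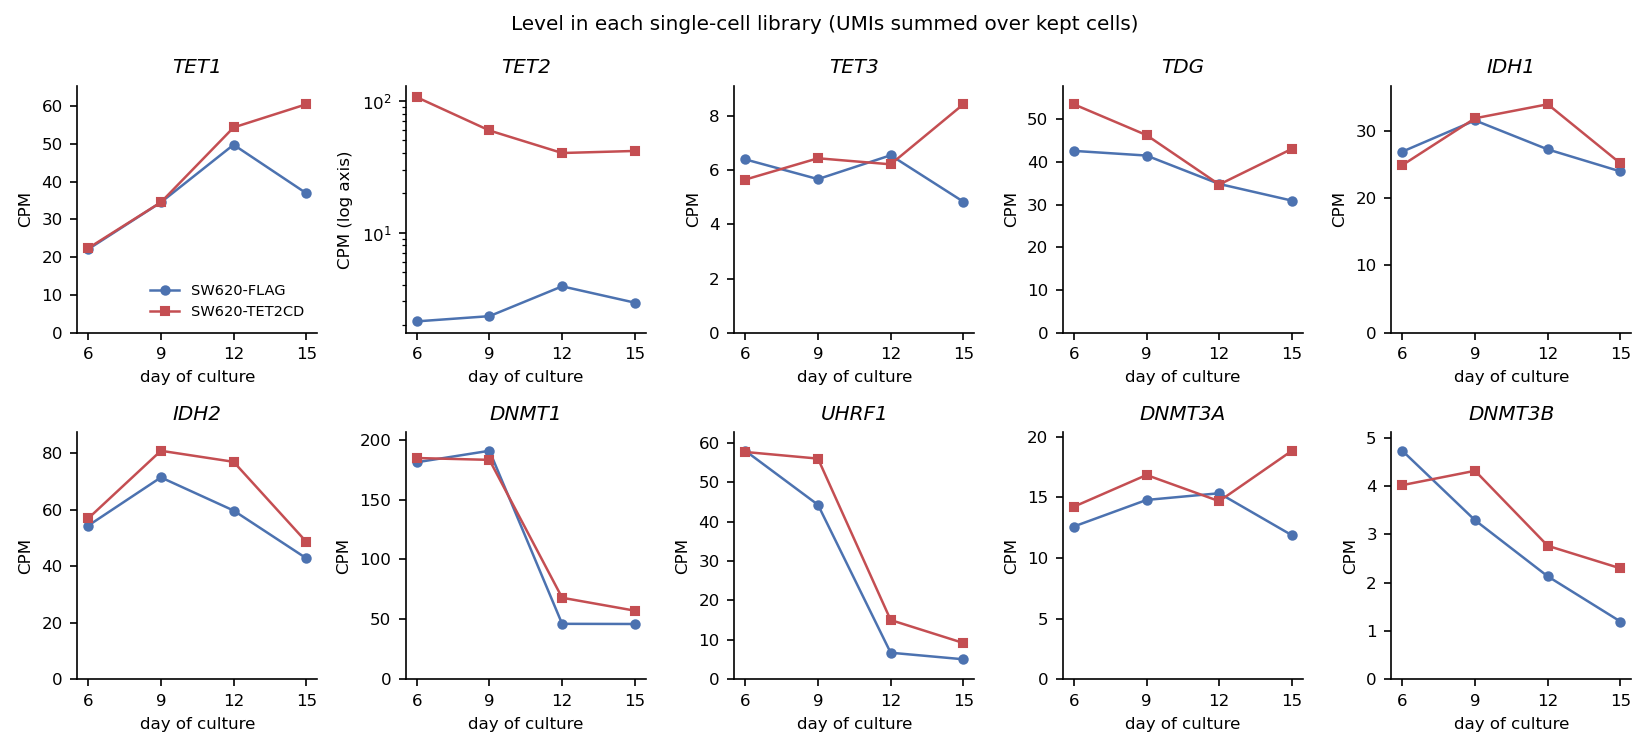
Level of each of the 10 genes in CPM (y axis, log axis for TET2 only) by day of culture (x axis) in SW620-FLAG (circles) and SW620-TET2CD (squares), 1 single-cell library per point. DNMT1 drops from 181 to 191 CPM on days 6 and 9 to 46.1 to 68.0 CPM on days 12 and 15 over both lines, and TET1 runs the other way, from 22.1 to 34.5 CPM to 36.9 to 60.5 CPM.

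Of the 3 TET genes only TET1 passed the test over time in both lines pooled. TET1 (chr10:68560337-68694487, plus strand), a TET enzyme with a CpG-binding CXXC domain, had 22.1, 34.5, 49.8 and 36.9 CPM in SW620-FLAG libraries and 22.3, 34.5, 54.3 and 60.5 CPM in SW620-TET2CD libraries. All 4 late libraries were above all 4 early libraries, and the log2 fold change was 0.71 (SE 0.17, edgeR adjusted p = 0.0056). Within SW620-FLAG alone it was 0.53 (edgeR adjusted p = 0.117, 37.7% of all genes called), and within SW620-TET2CD alone 0.84 (edgeR adjusted p = 0.0243, 29.3% called). The bulk libraries described below did not show this rise of TET1. TET3 (chr2:73984910-74108176, plus strand) stayed between 4.84 and 8.45 CPM with no separation of early and late libraries, and its log2 fold change was −0.02 (SE 0.14, edgeR adjusted p = 0.934). TET2 pooled over the lines gave −0.40 (SE 0.33, edgeR adjusted p = 0.324), and −0.64 to −0.02 with single libraries left out. The fold changes of the lines had opposite signs, since within SW620-TET2CD alone the TET2 log2 fold change was −1.21 (edgeR adjusted p = 0.0132), and within SW620-FLAG it was 0.54 (edgeR adjusted p = 0.15). The term for the difference between these time changes was −1.76 for TET2 (SE 0.39, unadjusted p = 0.00109 in edgeR's quasi-likelihood test), which did not hold over all 17478 genes tested (edgeR adjusted p = 1.00). No gene passed that test (0.00% called, 141 genes at an unadjusted p under 0.05), and DESeq2 also called 0. The UHRF1 term was 0.80 (SE 0.37, edgeR adjusted p = 1.00), and ran from 0.32 without SW620-TET2CD on day 12 to 1.15 without SW620-TET2CD on day 15.

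TDG (chr12:103965822-103988874, plus strand) was measured at 42.6, 41.5, 34.8 and 30.9 CPM in SW620-FLAG libraries and at 53.5, 46.3, 34.7 and 43.1 CPM in SW620-TET2CD libraries. SW620-TET2CD on day 15 lay within the range of the early libraries, so that early and late overlapped. The log2 fold change was −0.47 (SE 0.11, edgeR adjusted p = 0.00389). Within a line the test had 4 libraries and TDG no longer passed, at −0.43 in SW620-FLAG (edgeR adjusted p = 0.0668) and −0.54 in SW620-TET2CD (edgeR adjusted p = 0.0722). The bulk libraries described below did not show this fall of TDG.

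IDH2 (chr15:90083045-90102477, minus strand) was measured at 54.3, 71.4, 59.7 and 42.8 CPM in SW620-FLAG libraries and at 56.9, 80.8, 76.9 and 48.6 CPM in SW620-TET2CD libraries. It was highest on day 9 and lowest on day 15 in both lines, and was higher in SW620-TET2CD on all 4 days by 0.07 to 0.37 on the log2 scale. IDH1 (chr2:208236229-208266074, minus strand) held between 24.0 and 34.0 CPM. Late against early days gave −0.32 for IDH2 (SE 0.18, edgeR adjusted p = 0.162) and −0.17 for IDH1 (SE 0.14, edgeR adjusted p = 0.334). With single libraries left out, IDH2 ran from −0.50 without SW620-TET2CD on day 12, where it passed (edgeR adjusted p = 0.0222), to −0.18 without SW620-TET2CD on day 15 (edgeR adjusted p = 0.385). IDH1 ran from −0.30 to −0.08 in the same way.

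**Figure D3:**
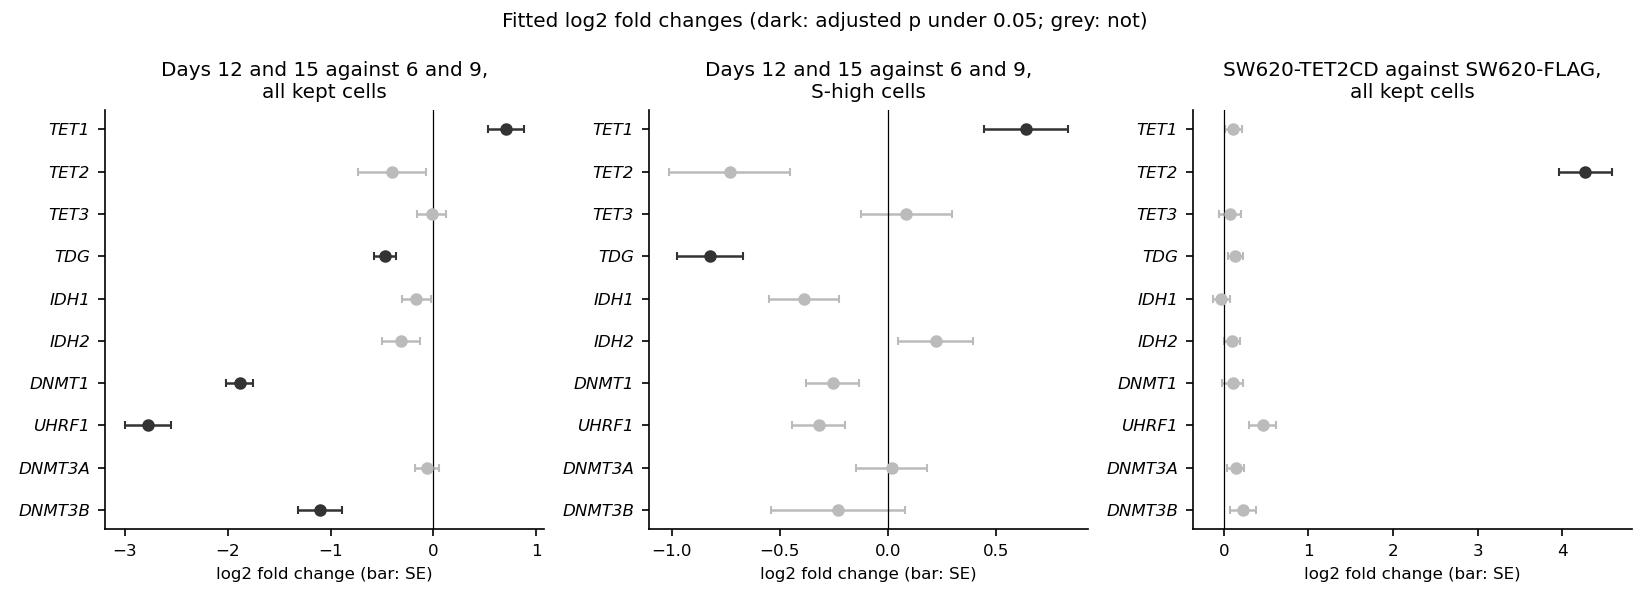
Fitted log2 fold changes (x axis, bars are SE) of the 10 genes for late against early days in all kept cells, for the same contrast in S-high cells, and for SW620-TET2CD against SW620-FLAG, with dark points at an edgeR adjusted p under 0.05. UHRF1 at −2.78 and DNMT1 at −1.88 stand farthest from 0 over time in all kept cells, at −0.32 and −0.26 in S-high cells, and TET2 at 4.27 is the only dark point between the lines.

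UHRF1 had the next largest line difference after TET2, at 0.46 (SE 0.16, edgeR adjusted p = 0.163), and 0.25 to 0.65 with single libraries left out. By day, UHRF1 in SW620-TET2CD relative to SW620-FLAG was −0.01 on day 6, 0.34 on day 9, 1.16 on day 12 and 0.87 on day 15 on the log2 scale. The 24 S-phase genes on the list used here, taken as a sum, differed in the same libraries by −0.12, 0.06, 0.68 and 0.28, and the 24 G2/M genes by 0.22, −0.20, 0.96 and −0.09. The S-phase sum was thus higher in SW620-TET2CD on days 12 and 15, and the G2/M sum on day 12 but not on day 15. In S-high cells alone, a class defined below, the UHRF1 line difference was 0.19 (SE 0.10, edgeR adjusted p = 0.502), and 4.19% of all genes were called there.

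UHRF1 and DNMT1 are known to be made mostly in cycling cells, and all 24 S-phase genes and all 24 G2/M genes on the lists used here fell in late libraries. The S-phase genes summed to 2133 to 2689 CPM in early libraries and to 416 to 774 CPM in late ones, and none of the 10 genes is on either list. Cells were therefore also ordered by their share of S-phase UMIs. S-high cells are the top 1 in 3 of all kept cells pooled (from 2.12 S-phase UMIs per 1000), S-low cells are the bottom 1 in 3, and 3933 cells (8.15%) lay within 10% of the upper limit. Among SW620-FLAG cells the S-high share was 67.7, 46.0, 3.26 and 1.37%, and among SW620-TET2CD cells it was 61.6, 48.9, 8.40 and 2.84%. The late libraries thus held only 95 to 327 S-high cells each.

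Among the 10 genes UHRF1 separated these classes most. It stood at 51.2 to 80.3 CPM in S-high cells and at 1.84 to 7.77 CPM in S-low cells over the 8 libraries, a log2 fold change of 4.14 (SE 0.15, library as a block, edgeR adjusted p = 1.27e-13). DNMT1 stood at 165 to 238 CPM in S-high cells and at 31.1 to 66.3 CPM in S-low cells, with a log2 fold change of 2.19 (SE 0.09, edgeR adjusted p = 1.04e-12). G2M-high cells, in the top 1 in 3 for G2/M genes and not S-high, lay between them at 14.1 to 42.5 CPM for UHRF1 and 101 to 180 CPM for DNMT1. IDH2 was higher in S-high cells in all 8 libraries (0.53, SE 0.06, edgeR adjusted p = 7.55e-07), and IDH1 was lower in all 8 (−0.37, SE 0.08, edgeR adjusted p = 0.000416). With cells thinned to 2000 UMIs before scoring, IDH1 was at −0.24 and no longer passed (edgeR adjusted p = 0.0629). In this comparison 59.8% of all tested genes passed, and 4 of the 10 did. The other 6, TET1, TET2, TET3, TDG, DNMT3A and DNMT3B, had log2 fold changes of −0.27 to 0.33 and edgeR adjusted p-values of 0.0514 to 0.801. TET1, at −0.17, passed without SW620-FLAG on day 6 (−0.22, edgeR adjusted p = 0.0256), day 9 (−0.22, 0.0264) or day 12 (−0.21, 0.0295).

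**Figure D4:**
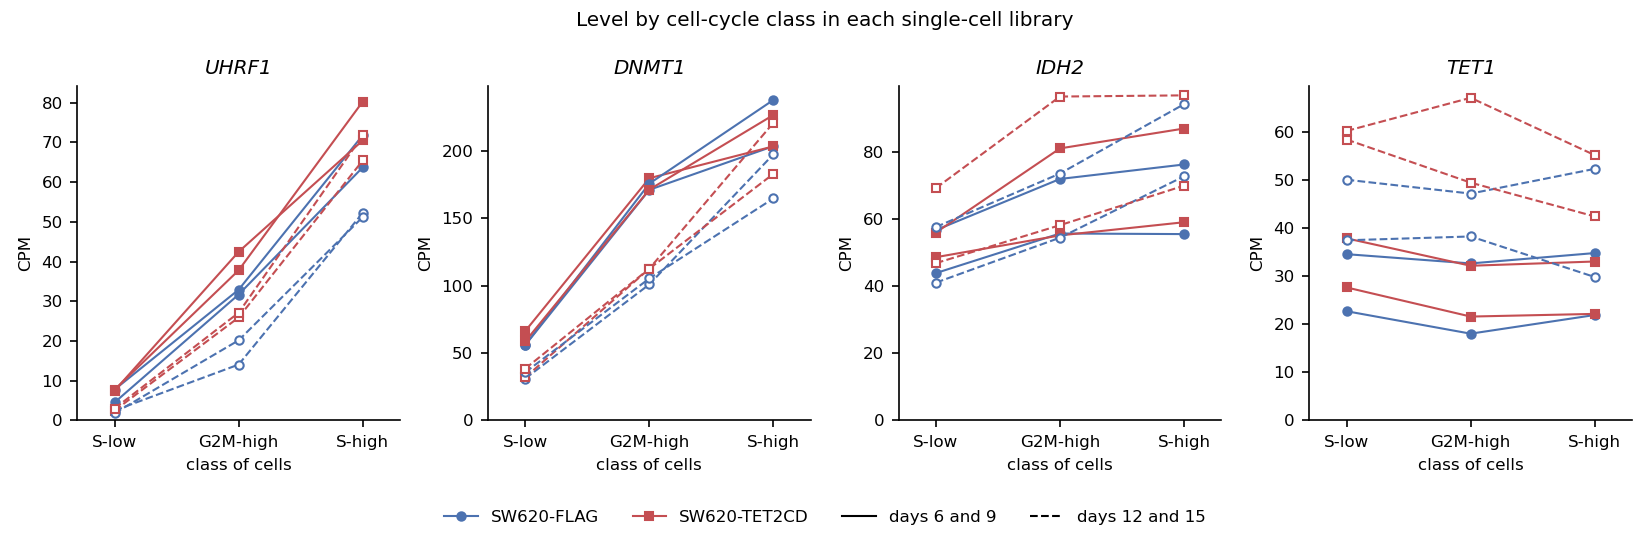
Level of UHRF1, DNMT1, IDH2 and TET1 in CPM (y axis) in S-low, G2M-high and S-high cells (x axis), with 1 line per single-cell library, solid for days 6 and 9 and dashed for days 12 and 15. UHRF1 and DNMT1 climb across the classes in all 8 libraries, and for TET1 the dashed and solid lines differ more than the classes do.

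The S-high cells of late libraries were not matched to those of early ones in other cycle genes. Within the class 17 of the 24 G2/M genes were lower in late libraries (median −0.75), with PLK1 at −2.78 and AURKA at −1.70 (edgeR adjusted p = 2.12e-05 and 4.3e-05), and of the S-phase genes 4 were lower and 3 higher, where 27.7% of all 13721 tested genes passed. CD68 was higher by 2.16 (edgeR adjusted p = 0.00745). The part of this shift in the values of the 10 genes within the class was not tested. Within S-high cells, late against early days gave −0.26 for DNMT1 (SE 0.12, edgeR adjusted p = 0.129) and −0.32 for UHRF1 (SE 0.12, edgeR adjusted p = 0.0607). In these cells DNMT1 was at 204, 238, 198 and 165 CPM in SW620-FLAG libraries and 203, 227, 183 and 221 CPM in SW620-TET2CD libraries, so that early and late overlapped. UHRF1 was at 71.8, 63.7, 52.3 and 51.2 CPM in the former and 70.5, 80.3, 65.5 and 71.8 CPM in the latter, which also overlapped. Both passed when the top 1 in 2 cells were taken (34.7% of all genes called, DNMT1 −0.50, edgeR adjusted p = 0.00547, and UHRF1 −0.57, edgeR adjusted p = 0.00383), and with DESeq2 on the S-high cells (25.3% called, DESeq2 adjusted p = 0.0461 and 0.023). Without SW620-TET2CD on day 12 UHRF1 passed at −0.40 (edgeR adjusted p = 0.0359). In S-low cells DNMT1 fell by 0.76 (SE 0.13, edgeR adjusted p = 0.00154) and UHRF1 fell by 1.47 (SE 0.23, edgeR adjusted p = 0.00121) on the log2 scale, where 31.0% of all genes passed.

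TET1 and TDG were the only 2 of the 10 genes called within S-high cells, where 27.7% of 13721 tested genes were. TET1 was higher in late libraries by 0.64 (SE 0.19, edgeR adjusted p = 0.0239), and by 0.73 in S-low cells (SE 0.16, edgeR adjusted p = 0.00628). TDG fell by 0.82 in late S-high cells (SE 0.15, edgeR adjusted p = 0.00167), and in S-low cells it stood at −0.15 (edgeR adjusted p = 0.358). In S-high cells TDG was at 42.9, 43.1, 25.6 and 16.8 CPM in SW620-FLAG libraries and 53.8, 44.7, 28.3 and 38.0 CPM in SW620-TET2CD libraries. The late values rest on few cells, with 95 S-high cells behind the lowest of them. The TET1 call in S-high cells was lost without SW620-TET2CD on day 6 (0.53, edgeR adjusted p = 0.0761), without SW620-FLAG on day 12 (0.49, edgeR adjusted p = 0.141) and without SW620-TET2CD on day 15 (0.54, edgeR adjusted p = 0.0838). TET2 over both lines was at −0.73 in S-high cells (SE 0.28, edgeR adjusted p = 0.0649), and passed without SW620-TET2CD on day 9 (−0.97, edgeR adjusted p = 0.0224) or day 15 (−1.08, edgeR adjusted p = 0.0404). It shrank to −0.20 without SW620-TET2CD on day 6 (edgeR adjusted p = 0.622) and to −0.39 without SW620-TET2CD on day 12 (edgeR adjusted p = 0.345). DNMT3B was at −0.23 in S-high cells (SE 0.31, edgeR adjusted p = 0.611), and ran from −0.63 without SW620-TET2CD on day 12 to −0.04 without SW620-FLAG on day 12.

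Of 9 genes on the list of partners of DNMT1 and UHRF1, 8 were tested and 7 fell in late libraries, against 28.6% of all genes. The exception was UHRF2, a paralog of UHRF1, at 8.78 to 10.92 CPM in early and 10.95 to 16.86 CPM in late libraries (0.28, SE 0.14, edgeR adjusted p = 0.112). PAF1, which also fell (−0.75, SE 0.11, edgeR adjusted p = 0.000335), is an RNA polymerase II elongation factor and not a known maintenance partner. UHRF2 and PAF1 are named after their values were seen. HELLS, a chromatin remodeller needed for CpG methylation, fell by 2.12 on the log2 scale, LIG1, the replicative DNA ligase that UHRF1 binds, fell by 2.35, and PCLAF, a PCNA-associated factor, fell by 2.97 (edgeR adjusted p = 9.71e-06, 1.68e-05 and 3.87e-05). All 8 were also higher in S-high than in S-low cells, where 28.2% of all genes were. The median of the 8 was −1.002 over time, against 0.04 for all tested genes. Within S-high cells the same comparison over time had 2 of the 8 lower (USP7 and PAF1) and 2 higher, CDCA7 (0.67, SE 0.12, edgeR adjusted p = 0.0016) and UHRF2, with a median of 0.10.

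Of 11 base excision repair genes, 7 fell and 1 rose in late libraries, against 28.6% lower and 29.4% higher among all genes. The list holds other glycosylases, which act beside TDG, as well as the enzymes that follow it. NEIL3, a DNA glycosylase, fell by 2.60, PARP1, a sensor of DNA breaks, fell by 1.55, and APEX2, an abasic site endonuclease, fell by 0.90 on the log2 scale (edgeR adjusted p = 1.46e-05, 2.23e-05 and 0.00049). The median of the list was −0.45, beside −0.47 for TDG. Of 16 genes on a list drawn up for 2-oxoglutarate supply and 2-hydroxyglutarate removal, 9 fell and 1 rose, against the same shares of all genes. The list also holds OGDH and DLST, which use up 2-oxoglutarate, and SDHA, SDHB, SDHC, SDHD and FH, which act on succinate and fumarate. Its count therefore does not measure supply alone. IDH3A, a subunit of the NAD-dependent isocitrate dehydrogenase, fell by 1.06 (SE 0.14, edgeR adjusted p = 0.000164), beside −0.32 for IDH2, and GOT2 (mitochondrial aspartate aminotransferase) fell by 1.35 (SE 0.12, edgeR adjusted p = 1.8e-05). SDHA, a succinate dehydrogenase subunit, fell by 0.77 (SE 0.13, edgeR adjusted p = 0.000611).

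Of 14 genes of the S-adenosylmethionine cycle, which supplies the methyl group, 12 were tested, 5 fell and 2 rose, against 28.6% lower and 29.4% higher among all genes. MTHFD1 and SHMT1, enzymes of cytosolic folate metabolism, fell by 1.71 and 1.91, and AHCY, which clears S-adenosylhomocysteine, fell by 1.24 on the log2 scale (edgeR adjusted p = 7.97e-06, 2.1e-05 and 0.000202). Among those that rose was AHCYL2, a relative of AHCY, named after its values were seen (0.72, SE 0.17, edgeR adjusted p = 0.00497). Of 7 TET partners 6 were tested, with 2 higher and 2 lower, close to the shares among all genes (29.4% and 28.6%). OGT, the O-GlcNAc transferase that binds TET2, rose by 0.96 (SE 0.16, edgeR adjusted p = 0.00049), CXXC4, which binds TET2 and favours its loss, rose by 1.54 (SE 0.29, edgeR adjusted p = 0.00123), and WT1, a transcription factor that recruits TET2, fell by 1.07 (SE 0.17, edgeR adjusted p = 0.000409). CXXC4 was low, at 0.24 to 1.51 CPM. Of 7 genes on the list of methyl-CpG readers 3 rose and 2 fell, also close to those shares. ZBTB4 rose by 1.15, while MBD2 fell by 1.02 and MBD3 fell by 1.28 (edgeR adjusted p = 0.000692, 0.00142 and 0.000203). MBD3, an MBD protein of the NuRD complex, does not bind methylated CpG selectively in mammals. Within S-high cells fewer genes of these lists passed over time. Of the base excision repair genes 2 of 11 were lower and 1 higher, of the 2-oxoglutarate genes 4 of 16 lower and 2 higher, and of the S-adenosylmethionine genes 3 of 12 lower and 2 higher, beside 27.7% of all genes called in either direction. No gene on any of these 6 lists passed the test between the lines, where 4.21% of all genes did.

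The genes whose levels ran most like those of the genes described here over the 8 libraries were found by Pearson's r of log2(CPM + 1) among 8717 genes. These values share libraries and an early to late shift, so they are a description. For DNMT1 they were PARPBP, BRCA1 and CHAF1A (r of 0.999 each), and for UHRF1 VCP, U2AF2 and CDC6 (0.998 each). For TET1 they were MZF1, KIAA0319L and SMARCA1 (0.993, 0.992 and 0.991), and for TET2 TPST2, MIB2 and SBSPON (0.967, 0.966 and 0.959). For TET3 and TDG the closest were ICE2 (0.99) and SLC52A3 (0.972), and for IDH1 and IDH2 FAHD1 (0.972) and H3F3A (0.967). DNMT3B, with a mean under 5 CPM, was not compared.

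The bases just before the transcript start of the maintenance pair are shown because the 2 genes moved together. All 10 genes had a promoter in the RefSeq table (GRCh38.p14), and the 250 bases before each start were searched on both strands for the 4 E2F motifs TTTCCCGC, TTTCGCGC, TTTGGCGC and TTTGCCGC. A match to any of them could share bases with a match to another. A match was found in UHRF1 only, to TTTCCCGC, on the minus strand relative to the gene, 14 to 7 bases before the start. Of all 35116 promoters 2.79% hold any of the 4 motifs in the same window. The search began with TTTCGCGC and TTTGGCGC, which matched none of the 10 genes. TTTCCCGC and TTTGCCGC were added after that result and after the sequences had been seen, so the UHRF1 match was found by widening the search. TTTCCCGC alone is in 1.39% of promoters. The last 30 bases before each start, written 5′ to 3′ along the gene with the match in capitals, are these.
UHRF1 (chr19:4909471-4909500, plus strand): caaatgccgagttttcGCGGGAAAaaaatc
DNMT1 (chr19:10194954-10194983, minus strand): cgctcatcgcccctccccatcggtttccgc
The absence of a match in DNMT1 says only that these letters are not in the window searched. Both windows lie inside the longer gene span that GENCODE gives, where other transcripts of each gene start farther upstream.

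Within SW620-TET2CD, cells with a TET2 UMI were compared with cells without, after thinning to 2000 UMIs and with the library as a block. TET2 itself chose the cells and was not tested. IDH2 was the only 1 of the other 9 genes to pass, against 5.84% of 11943 tested genes. Cells with a TET2 UMI had 83.6, 115, 122 and 76.1 CPM of it, and cells without had 55.7, 79.3, 74.4 and 46.2 CPM. Cells with a TET2 UMI were higher on all 4 days, with a log2 fold change of 0.54 (SE 0.09, edgeR adjusted p = 3.37e-05). With at least 2 TET2 UMIs against none, which leaves out day 12 for want of cells, it was 0.42 and did not pass (edgeR adjusted p = 0.306). In the same cells LYZ was higher by 1.18 and CDH1 by 0.37, while KRT19 (−0.16) and EPCAM (−0.17) were lower (edgeR adjusted p = 1.77e-06, 0.0111, 0.00435 and 0.0366). Of the 24 G2/M genes KIF20B (−0.31) and NUSAP1 (−0.33) were lower (edgeR adjusted p = 0.022 and 0.0465), and of the TET partners CXXC5, which binds CpG sites, was lower (−0.26, edgeR adjusted p = 0.0236). The part of these genes in the IDH2 difference was not tested. DNMT3A was also higher on all 4 days (0.48, SE 0.17, edgeR adjusted p = 0.0873) and UHRF1 on 3 of 4 (0.40, SE 0.13, edgeR adjusted p = 0.0692), and TET1 was lower on 3 of 4 (−0.39, SE 0.14, edgeR adjusted p = 0.0936). None of these 3 passed. With cells thinned to 4000 UMIs UHRF1 passed at 0.43 (edgeR adjusted p = 0.00116, 11.3% of all genes called), and without day 12 it passed at 0.48 (edgeR adjusted p = 0.0179).

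In bulk RNA-seq the values are RSEM's TPM, which divides reads by transcript length and allows levels to be set side by side between genes. In SW620 on day 6, DNMT1 was the highest of the 10 at 107 TPM, followed by IDH2 at 60.8, UHRF1 at 60.8, IDH1 at 57.6 and TDG at 27.7. DNMT3A stood at 15.8, TET3 at 9.12, DNMT3B at 5.45, TET1 at 2.32 and TET2 at 1.38 TPM. In SW480 on day 6 IDH1 was the highest of the 10 at 97.0 TPM, DNMT1 was at 82.3 and UHRF1 at 63.5 TPM, while TET1 was at 0.40, TDG at 9.41 and DNMT3B at 2.16 TPM, and TET2 was at 2.93 TPM. With 1 library each, the differences between SW480 and SW620 were not tested.

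On day 15 UHRF1 in SW620-FLAG was at 15.2 TPM inside the colonies and 18.5 TPM outside them, and in SW620-TET2CD the values were 9.50 and 20.9 TPM. DNMT1 in SW620-FLAG was at 51.7 TPM inside and 53.3 TPM outside, and in SW620-TET2CD the values were 41.5 and 53.0 TPM. Both were higher outside in both lines, by a small margin in SW620-FLAG. In a fit of location with the line as a block, the log2 fold change of outside against inside was 0.70 for UHRF1 (SE 0.20, edgeR adjusted p = 0.772) and 0.30 for DNMT1 (SE 0.12, edgeR adjusted p = 0.772). None of the 10 genes and none of 17722 tested genes passed (0.00% called, 1068 at an unadjusted p under 0.05), and DESeq2 called 24 genes (0.142%). The fit had 1 residual degree of freedom. With 1 library left out and location fitted alone, UHRF1 was at 0.33 to 1.07 and DNMT1 at 0.05 to 0.54. The line enters these values, and they are given with no test. The 24 G2/M genes in SW620-FLAG summed to 524 TPM inside and 681 TPM outside, and those in SW620-TET2CD to 210 and 516 TPM, and their part in the UHRF1 values was not tested.

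TET2 in the day 15 bulk libraries of SW620-FLAG was at 1.15 TPM inside and 1.29 TPM outside. In those of SW620-TET2CD it was at 38.1 and 124 TPM. The SW620-TET2CD values count transgene reads but divide them by a TET2 length of about the whole transcript (an effective length of 9481 and 9475 bases), so they are not on the scale of the other genes. The line difference for TET2 was 5.90 (SE 0.47, location as a block, edgeR adjusted p = 0.0457), and 0.412% of tested genes passed, TET2 alone of the 10. With 1 of the 4 libraries left out, a fit with both line and location has no residual degrees of freedom, so the line was fitted alone, the arm of 1 library was assumed to vary like the other, and location enters the difference. TET2 was then at 5.09 to 6.70. These fits are given as values, with no test. The location difference for TET2 was 0.90 over both lines (SE 0.41, edgeR adjusted p = 0.772).

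**Figure D5:**
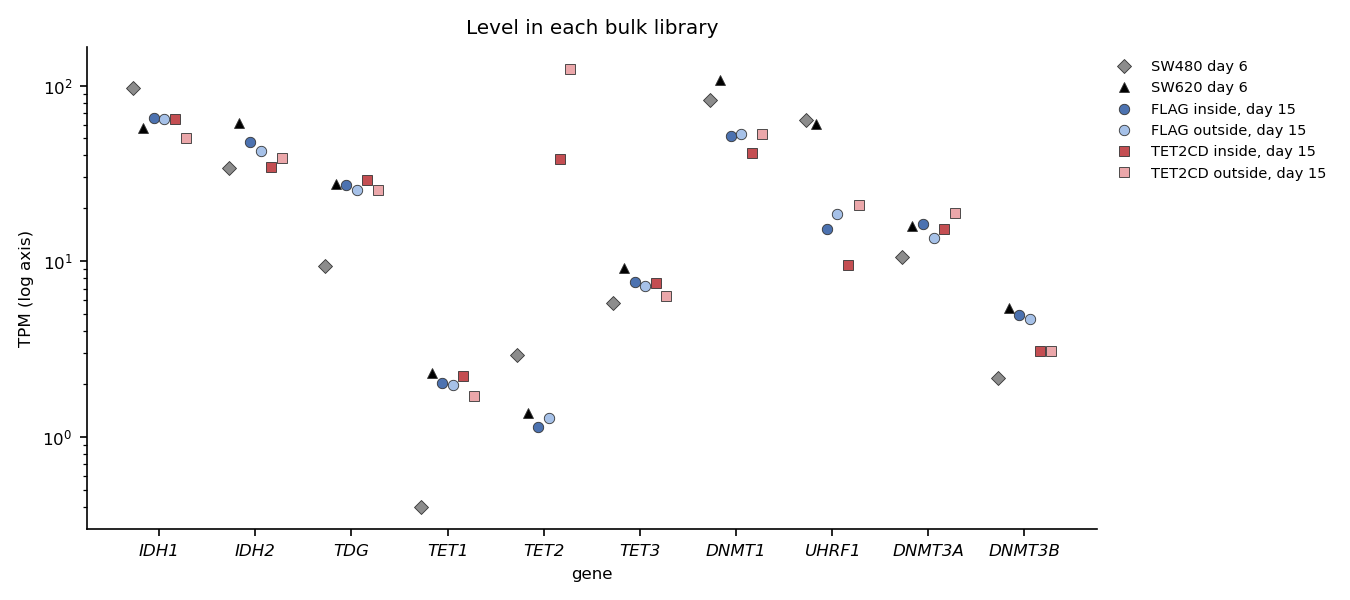
Level of each of the 10 genes in TPM (y axis, log axis) in the 6 bulk libraries, 1 point per library: SW480 and SW620 on day 6, and, on day 15, SW620-FLAG and SW620-TET2CD from inside or outside the colonies. The UHRF1 points of day 15 lie between 9.50 and 20.9 TPM, below those of day 6, and TET1 in SW480 is lowest of all points at 0.40 TPM.

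In the day 15 libraries of SW620-FLAG DNMT3B had 4.94 TPM inside and 4.72 TPM outside, against 3.11 and 3.08 TPM in SW620-TET2CD, a line difference of −0.71 (SE 0.17, edgeR adjusted p = 0.134). IDH2 had 47.7 and 42.5 TPM in SW620-FLAG, against 34.4 and 38.7 TPM in SW620-TET2CD (−0.37, SE 0.11, edgeR adjusted p = 0.17). UHRF1 differed by −0.35 between the lines (SE 0.20, edgeR adjusted p = 0.401). With 1 library left out and the line fitted alone, DNMT3B was at −0.75 to −0.68, IDH2 at −0.50 to −0.26 and UHRF1 at −0.91 to 0.17. In the single-cell libraries the lines were ordered the other way for DNMT3B on 3 of 4 days and for IDH2 on 4 of 4. UHRF1 had no single order in bulk, since SW620-TET2CD was lower inside (9.50 against 15.2 TPM) and higher outside (20.95 against 18.5 TPM). In the single-cell libraries UHRF1 was higher in SW620-TET2CD on 3 of 4 days. In the day 15 bulk libraries TET1 ranged from 1.71 to 2.24 TPM, TET3 from 6.35 to 7.65 TPM and TDG from 25.5 to 28.9 TPM. IDH1 ran from 50.4 to 65.2 TPM and DNMT3A from 13.5 to 18.9 TPM. SW620 on day 6 had 2.32 TPM of TET1, 27.7 TPM of TDG and 5.45 TPM of DNMT3B in bulk. For DNMT3B the day 15 values of SW620-FLAG (4.94 and 4.72 TPM) were only slightly under that of day 6. Those of SW620-TET2CD (3.11 and 3.08 TPM) were farther under it. The rise of TET1 and the fall of TDG in the single-cell sums were thus not seen in bulk, where time was not tested.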

How the data were processed

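Single-cell values are UMI counts per gene and barcode, deposited by the authors as Cell Ranger 4.0 matrices on GRCh38. Bulk values are RSEM expected counts, TPM and FPKM that the authors deposited per gene (TruSeq libraries, Bowtie named, versions not given in the sources used here). The submitters' processing notes name mm10 for the bulk tables, whose rows are human genes. FPKM values were not used. Nothing was realigned.

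Barcodes were kept as cells where they had 200 to 4500 genes, a total of 1000 to 20000 UMIs, and no more than 10% of them mitochondrial, and doublets were not called. Counts summed per library, or per class with at least 50 cells, were tested with edgeR 4.0.16 (filterByExpr, TMM, quasi-likelihood, two-sided, Benjamini-Hochberg adjustment over all tested genes, threshold 0.05) in R 4.3.3. Bulk expected counts were rounded and 45 copies of pseudoautosomal genes left out, leaving 16470176 to 25840563 per library. Each SE given with an edgeR fit is the size of the log2 fold change divided by the square root of the quasi-likelihood F statistic. It thus restates the test and is not a separate estimate. DESeq2 1.42.0 was an alternative. Scripts were tested on simulated data. Positions are from GENCODE 44, motifs from RefSeq promoters. List genes named with a test are among the 3 of their list with the smallest p, except UHRF2, PAF1 and AHCYL2, and EPCAM, KRT20, PTPRC, CD3E, COL1A2, COL3A1 and DNMT3L are named for their levels. The 10 genes, the lists and the tests were chosen with earlier results of these data known. The likeness search for DNMT3A is not reported here.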

Additional observations from a re-analysis of the deposited data

Results flagged for a closer look

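The mean TET2 level went up over time in SW620-FLAG and down in SW620-TET2CD. In SW620-FLAG both late libraries were above both early ones, by 0.61 on the mean log2 CPM scale, and in SW620-TET2CD both were below, by −0.96. The test of this difference is the interaction term given above, which did not pass after adjustment.

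In the day 15 bulk libraries DNMT3A in TPM was lower outside than inside the colonies in SW620-FLAG (−0.27 on the log2 scale) and higher outside in SW620-TET2CD (0.31). IDH2 was likewise lower outside in SW620-FLAG (−0.17) and higher outside in SW620-TET2CD (0.17). TPM divides by RSEM's effective length, which differed between libraries. For IDH2 it was 1732 bases inside and 1616 outside in SW620-FLAG, and 1734 and 1593 in SW620-TET2CD. For DNMT3A it was 3833 and 4210 bases in SW620-FLAG, and 3661 and 3740 in SW620-TET2CD. The part of these lengths in the differences was not tested. With 1 library per line and location, neither difference was tested.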

How the results depend on the processing

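Of 523 values of single genes under the alternatives, 19 changed sign, none of a called gene and none called after the change. They were, over time, TET3 at 0.16 and DNMT3A at 0.11 and IDH1 at 0.00114 with upper-quartile factors, TET3 at 0.000948 and DNMT3A at 0.0339 with every barcode, DNMT3A at 0.00196 without upper limits and as a slope per day (5.11e-05), DNMT3A at 0.0389 on days 6 and 15 only, TET2 at 0.54 within SW620-FLAG and TET3 at 0.0942 within SW620-TET2CD. The within-line fits and those in S-high cells for the lines and in S-low cells for time were added after the data had been seen. Between the lines in S-high cells DNMT1 was at −0.00686 and TET1 at −0.0231. When single libraries were left out, the time change of TET3 ran from −0.11 to 0.0600, the line difference of DNMT1 from −0.0388 to 0.19, that of UHRF1 in bulk from −0.91 to 0.17 and the location difference of TET2 from −4.19 to 5.66. In these bulk fits on 3 libraries the other factor was dropped as well, for want of residual degrees of freedom, so that line enters the location values and location the line values, and 1 arm has 1 library, assumed to vary like the other.

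Over time, 9587 genes passed (50.7% of them higher in late libraries), 6236 within SW620-FLAG and 5041 within SW620-TET2CD. Upper-quartile factors moved the median log2 fold change of all genes from 0.04 to 0.21 and the higher share to 63.2%, with DNMT1, UHRF1, DNMT3B, TDG and TET1 still called. Between the lines 696 genes passed, 1489 without the filter on low counts (UHRF1 with them, edgeR adjusted p = 0.00188), 46 without the day block and 416 to 680 with a library left out (416 without SW620-FLAG and 426 without SW620-TET2CD on day 9). For the interaction 15 passed without the filter, TET2 among them (edgeR adjusted p = 0.000235). Over time TET2 and IDH2 also passed without it (edgeR adjusted p = 0.0124 and 0.0314), and TET2 on days 6 and 15 only (0.0025). For location 24 passed with DESeq2 and 472 without the filter, UHRF1 (edgeR adjusted p = 0.00982) and TET2 (0.0122) among them. For the line in bulk 73 passed (69.9% higher), against 704 with DESeq2, 178 with upper-quartile factors (57.9% higher), 2239 without the filter, and 0 to 4191 in the fits on 3 libraries described above, which say nothing of stability. Within S-high cells 3805 passed, 2340 to 4349 with a library left out (2340 without SW620-TET2CD on day 6). Between S-high and S-low cells 8319 passed, 4655 with cells thinned to 2000 UMIs. By TET2 UMI 698 passed, 336 with DESeq2, 343 with at least 2 UMIs, 1516 with cells thinned to 4000 UMIs, and 403 to 691 with a library left out (403 without day 6). The causes were not tested. The lines were paired by day and the classes of cells by library, as blocks in the fits reported. Pairing by replicate number could not be done, because each condition had 1 library.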
